A study of Homo sapiens with 24 samples.

Results

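The control RNA of 2 renal cell carcinoma lines, 786-O (786O in the labels) and A498, was compared with the control RNA of 2 prostate cancer lines, PC3 and DU145, to describe which genes set the lines of one tumour type apart from those of the other before any study treatment. All 24 samples of the series were Agilent two-color arrays carrying control RNA in Cy3 and treated RNA in Cy5, and 8 of them, all on the second of 2 array designs, had these lines in Cy3. The controls were not alike. PC3 and DU145 each had a control miRNA transfection (replicate 1, control of miR-143) and a control siRNA transfection (replicate 2, control of si-GOLM1). A498 had a control miRNA transfection only, and 786-O had a control miRNA transfection (replicate 1, both controls of miR-27b) and untreated cells from CXCL10 arrays at 12 h (replicate 2) and 24 h (replicate 3). The transfected controls were made with Lipofectamine RNAiMAX per the labels, so 6 of the 8 control channels came from transfected cells. The same 4 lines also had 9 control channels on the first array design, and the lines LNCap, FaDu and SAS had 7. A gene's level was its Cy3 signal on the log2 scale minus the log2 of the array's 75th percentile, so that 0 is the signal that 75% of the spots lay below. In bulk RNA from a culture, fewer cells that express a gene and less RNA per cell cannot be told apart.

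Clear cell renal carcinoma arises in the nephron tubule and usually loses VHL, the part of a ubiquitin ligase that binds hydroxylated HIF α subunits and marks them for breakdown. HIF-1α and HIF-2α then stay on in normal oxygen and drive genes of glycolysis, angiogenesis and pH control, and PAX2 and PAX8, transcription factors of the developing kidney, are usually kept by the tumour. PC3 and DU145 are prostate carcinoma lines that grow without androgen, and markers of luminal prostate cells that need androgen are not usual in them. Epithelial cells hold together by E-cadherin junctions, tight junctions and desmosomes, and transcription factors such as SNAI1, ZEB1 and ZEB2 repress these genes and leave a mesenchymal pattern.

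The control channels were first compared with each other. No pair on the second design differed by as little as the replicate spots of one probe. The robust SD over probes of the difference was 0.231 (log2) between both DU145 channels, 0.265 between both PC3 channels and 0.384 between both untreated 786-O channels. The control miRNA channel of 786-O stood apart from the untreated ones, with 0.737 against replicate 2 and 0.847 against replicate 3. Between channels of different lines the value ran from 0.709 to 1.06, so the 786-O transfection control differed from untreated 786-O by about as much as lines differed from each other. Each of the 8 channels was nevertheless most like its own line on the first design, with r between 0.632 and 0.836 across 16409 probes that are not independent replicates. Where the 786-O transfection control lay far from the untreated 786-O channels, the difference without it or with it alone is given for several of the genes concerned. All prostate arrays lay in row 1 of the slide and all renal arrays in row 2, so tumour type and slide row cannot be told apart on this design. Nothing in the labels says which channels came from separate cultures. Between 53.2% and 57.8% of the Cy3 spots were well above background and 0 were saturated.

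Both renal lines lay above both prostate lines by at least 1 (log2, 2-fold) for 799 of 17265 genes tested (4.63%), and both prostate lines above both renal lines for 814 (4.71%), together 1613 genes (9.34%). A gene meeting this limit is called apart below; it is a call by size, without a test. Among these, 219 genes higher in the renal lines and 259 higher in the prostate lines were not well above background in any channel of the other tumour type, and for those a fold is given only as a lower bound. With the median of each array as the scale the split was 996 against 647, or 60.6% higher in the renal lines against 49.5% with the 75th percentile, and the median difference of all genes moved from -0.02 to 0.14. With the line as the replicate, limma called 0 genes at an adjusted p of 0.05 (smallest adjusted p 0.0711), with 1723 genes (9.98%) at an unadjusted p under 0.05. An exact permutation test of 2 lines against 2 cannot give a two-sided p below 0.333. With all 8 channels and the line as a random block (correlation 0.616), limma called 343 genes (1.99%), and all of them were apart, with 2311 genes (13.4%) at an unadjusted p under 0.05. With channels counted as replicates of 4 line groups limma called 2690 genes (15.6%) higher in the renal lines and 2489 (14.4%) higher in the prostate lines, a fit that leaves out the spread between lines and is used no further. Without the 786-O transfection control the counts apart were 911 and 898, with 786-O taken by that channel alone 636 and 677, and without A498, when 786-O stands for the renal lines by itself, 1442 and 2058. The block fit takes 1 correlation for all genes, so channels of a line still count in part as replicates. Its p-values can be small where lines of a tumour type differ. CCL2, at means of -0.60 in 786-O and 4.98 in A498, had 0.0493 by the block fit and 0.328 on line means (both adjusted p by limma). They are quoted below as block-adjusted p, and no gene quoted with one passed an adjusted p of 0.05 on line means. Many genes named below were chosen by their difference in these same channels. For those genes the p-values describe size and spread and are no separate support.

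Of the 2 genes taken as labels of renal identity, one set the groups apart and the other did not. PAX8 was at 2.09, 2.78 and 3.95 in 786-O and 2.97 in A498, against -2.33 and -2.37 in PC3 and -4.60 and -4.20 in DU145. All renal channels were above all prostate channels, and both DU145 channels were not well above background. The difference of the line means was 6.33 ± 0.82 (SE, 2 lines against 2), with an adjusted p of 0.134 by limma on line means and a block-adjusted p of 0.0108. With DU145 not well above background no fold is given. CA9, the HIF-induced carbonic anhydrase that marks most clear cell tumours, was at -4.03, -6.38 and -6.36 in 786-O, -1.94 in A498, -2.22 and -3.31 in PC3, and -6.56 and -5.97 in DU145. The groups overlapped: A498 and PC3 had measurable signal, whereas untreated 786-O and DU145 were not well above background. The CA9 difference was 0.75 ± 1.79 (SE; adjusted p = 0.906 by limma on line means), so CA9 did not mark these renal lines as a pair.

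**Figure D1:**
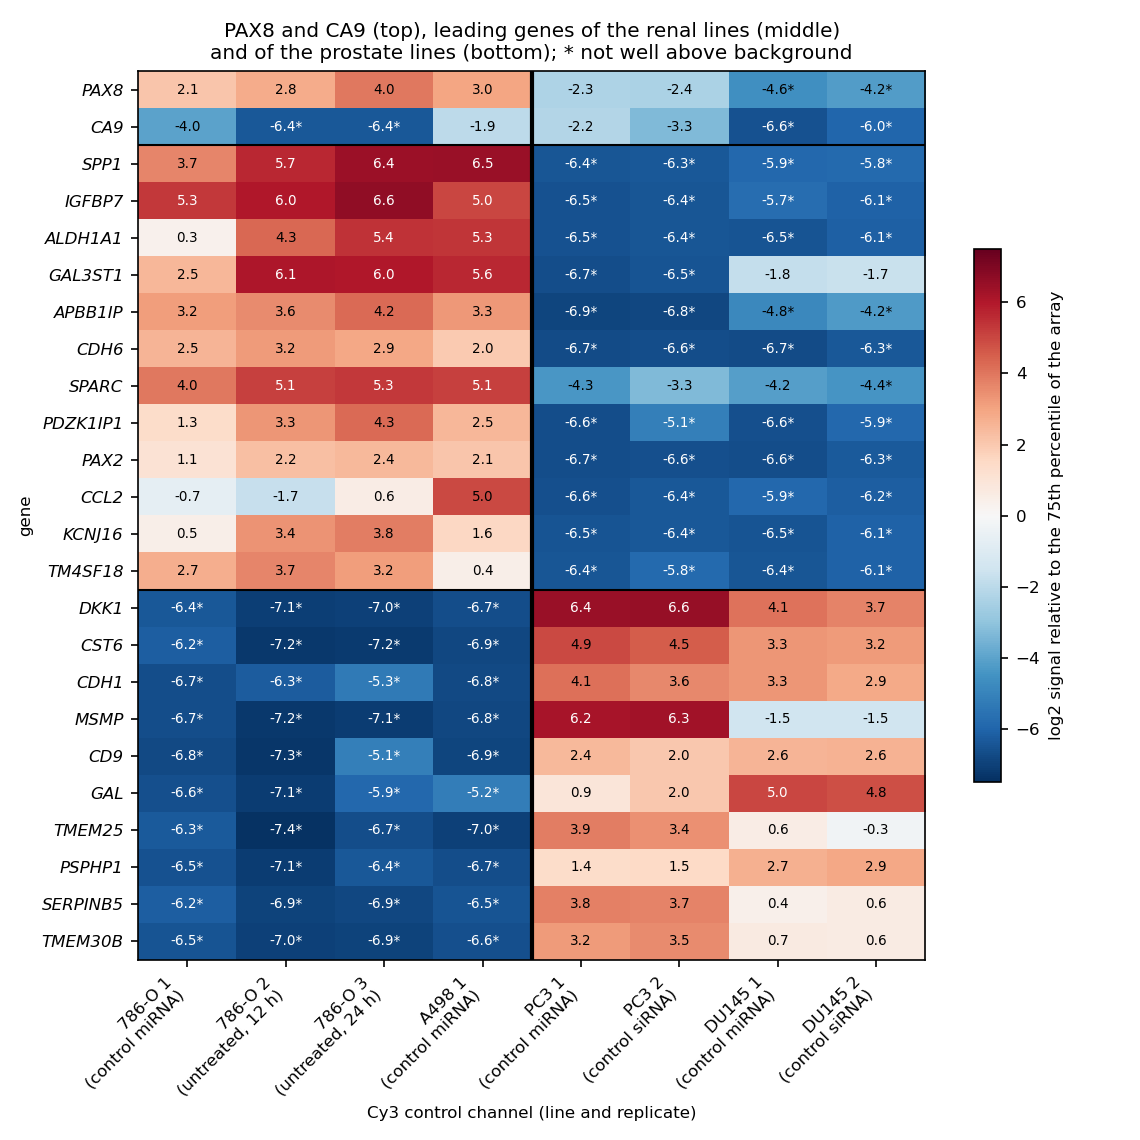
Level of PAX8, CA9 and the genes with the greatest difference in each direction, 12 higher in the renal lines and 10 higher in the prostate lines (rows), in each Cy3 control channel (columns), as log2 signal relative to the 75th percentile of the array, with an asterisk where the spot was not well above background. The vertical line divides renal from prostate channels. Apart from CA9, every gene shown has all renal channels above or all below all prostate channels, and in most rows the lower group lies at background. The leading genes were chosen for being apart.

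Most of the genes with the greatest excess in the renal lines were not well above background in any prostate channel, the exceptions being GAL3ST1 in both DU145 channels and SPARC in 3 of the 4 prostate channels. SPP1, the matrix phosphoprotein osteopontin, was at 3.68, 5.66 and 6.42 in 786-O and 6.47 in A498, and between -6.42 and -5.85 in the 4 prostate channels, none well above background. It was at least 1260-fold higher in the renal lines (measured difference 11.98 ± 0.61, block-adjusted p = 0.00136 by limma). IGFBP7, a secreted protein that binds insulin-like growth factors, was at 5.30, 6.01 and 6.62 in 786-O and 5.01 in A498 and was at least 974-fold higher (difference 11.68 ± 0.56, block-adjusted p = 0.000212). ALDH1A1, a retinaldehyde dehydrogenase, was at 4.30 and 5.45 in untreated 786-O and 5.34 in A498 but at 0.32 in the 786-O transfection control. Even that channel lay above all prostate channels, none of them well above background, and the bound was 440-fold. The ALDH1A1 difference was 10.73, 11.49 without that channel and 9.21 with 786-O taken by it alone.

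CDH6, the kidney cadherin of the proximal tubule, was at 2.53, 3.19 and 2.91 in 786-O and 1.98 in A498 and lay between -6.71 and -6.33 in the prostate channels, at least 117-fold lower there (difference 9.03 ± 0.51, block-adjusted p = 0.00014 by limma). GAL3ST1, which makes the sulfatides abundant in kidney, was at 2.47, 6.06 and 5.99 in 786-O and 5.63 in A498. In the prostate lines it was measured in DU145 only, at -1.77 and -1.70, and the difference of 9.39 had a block-adjusted p of 0.059 by limma. It was 8.20 with 786-O taken by its transfection control alone. PDZK1IP1, a small membrane protein of proximal tubule cells, was at least 144-fold higher in the renal lines, and KCNJ16, a basolateral potassium channel of the tubule, at least 90-fold. APBB1IP, an adaptor that links Rap1 to integrin activation, was at least 238-fold higher and TM4SF18, a tetraspan membrane protein, at least 76.3-fold. SPARC, a secreted matrix protein, was at 3.95, 5.10, 5.29 and 5.13 in the renal channels and between -4.41 and -3.33 in the prostate channels (difference 9.01 ± 0.45, 517-fold), the lowest not well above background.

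Genes with the greatest excess in the prostate lines included a Wnt antagonist and a protease inhibitor. DKK1, the secreted Wnt antagonist, was at 6.45 and 6.55 in PC3 and 4.09 and 3.73 in DU145, against -7.09 to -6.38 in the renal channels, none well above background. It was at least 985-fold higher in the prostate lines (difference -11.95 ± 0.98, renal minus prostate, block-adjusted p = 0.000411 by limma). CST6, a cysteine protease inhibitor of epithelia, was at least 424-fold higher in the prostate lines.

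Other prostate-high genes split PC3 from DU145. MSMP, a small secreted protein first found in PC3 cells, was at 6.16 and 6.31 in PC3 and at -1.48 and -1.47 in DU145, and its block-adjusted p was 0.0613 by limma. GAL, the neuropeptide galanin, had the opposite order, with 0.92 and 2.04 in PC3 and 5.01 and 4.83 in DU145. A second GAL probe differed by 0.16 in the other direction, so the GAL call rested on 1 of its probes. SERPINB5 (maspin), a serpin of epithelial cells, was at 3.76 and 3.74 in PC3 and 0.40 and 0.64 in DU145. CD9, a tetraspanin, ran from 2.05 to 2.63 and was at least 142-fold higher. TMEM25 and the pseudogene PSPHP1 were at least 98.6-fold and 114-fold higher, and TMEM30B had a bound between these.

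Gene lists of known biology were then read against the background share. Since a member could pass the signal filter through the group in which it was high, counts and medians below describe the tested members and no more. The median difference of all genes was -0.02.

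**Figure D2:**
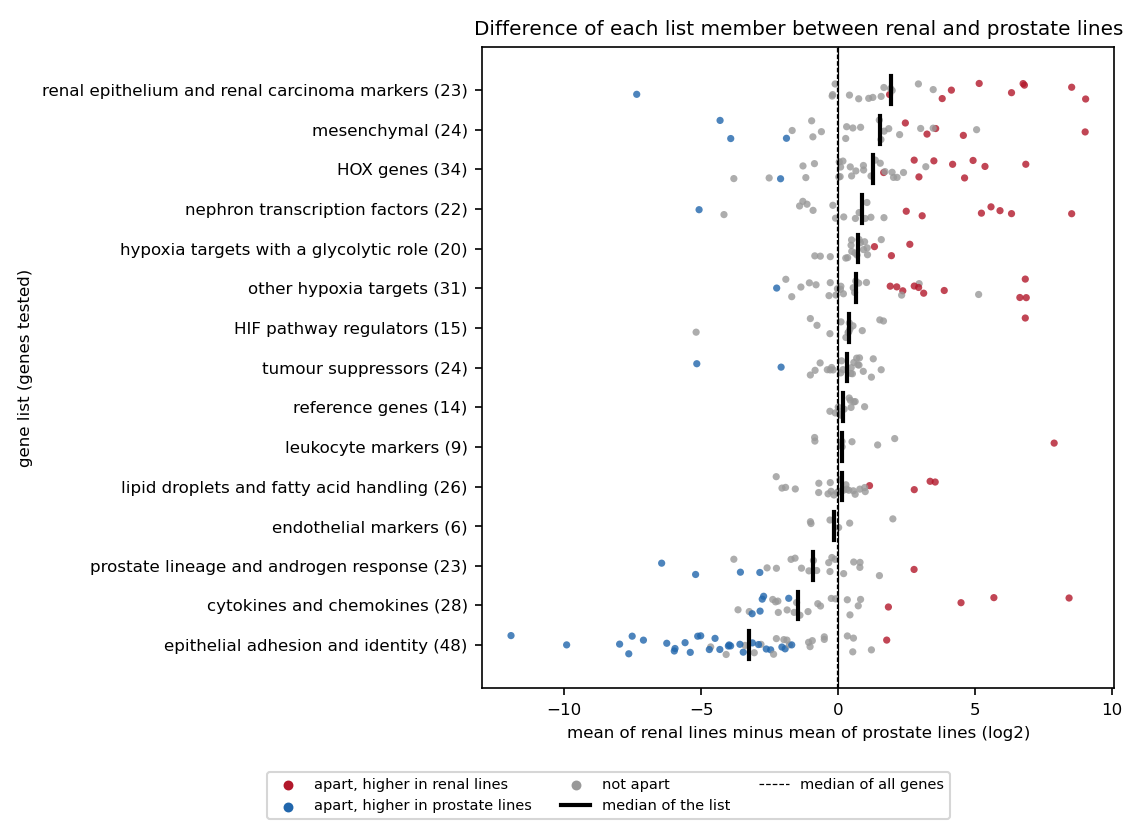
Difference between the mean of the renal lines and the mean of the prostate lines (log2) for each tested member of 15 gene lists, with the number tested in parentheses. Points are genes, colored where both renal lines were apart from both prostate lines, thick bars are list medians, and the list of epithelial genes has the lowest median at -3.26 and the renal markers the highest at 1.92.

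Among markers of renal epithelium and renal carcinoma, 23 of 28 passed the signal filter, 9 were apart and higher in the renal lines (39.1%, against 4.63% of all genes) and 1 was higher in the prostate lines (4.3%, against 4.71%). The members higher in the renal lines were PAX8, PAX2, CDH6, CDH16, GGT1, HAVCR1, VCAM1, CD70 and DAB2. PAX2, the nephron lineage factor that acts with PAX8, was at 1.06, 2.24 and 2.41 in 786-O and 2.06 in A498 and at background in all prostate channels, at least 85.3-fold lower (block-adjusted p = 0.000487 by limma). A second PAX2 probe differed by 1.09. CD70, the ligand of CD27 that many renal carcinomas carry, was at 6.40, 6.52 and 6.67 in 786-O and 6.55 in A498, against -0.85 and -0.06 in PC3 and 3.16 and 3.33 in DU145. The renal channels were close to each other, while PC3 and DU145 were not, and the difference was 5.15 ± 1.34 (35.5-fold, block-adjusted p = 0.0465).

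HAVCR1 (KIM-1), a receptor of injured proximal tubule, was at least 25.6-fold higher in the renal lines, and VCAM1, an adhesion molecule for leukocytes, at least 27-fold. CDH16, the kidney-specific cadherin, was at 0.99, 2.38 and 2.83 in 786-O but -1.06 in A498, and one DU145 channel reached -1.42. These values were close, and CDH16 was no longer apart without DU145 replicate 2 (difference 2.70) or with control miRNA channels only (2.11). GGT1, the γ-glutamyltransferase of the brush border, was at 0.71 in the 786-O transfection control and 0.78 in A498, only a little above the -0.42 to -0.18 of the prostate channels, and at 2.96 and 3.43 in untreated 786-O. With 786-O taken by its transfection control alone GGT1 was no longer apart, and its difference went from 1.88 to 1.05. These values are of its brightest probe. With all channels, all 5 tested GGT1 probes were apart the same way, with differences from 1.88 to 5.57. DAB2, an endocytic adaptor of the proximal tubule, was 17.6-fold higher in the renal lines. On the first design DAB2 was not apart, with 0.94 in PC3 against 1.22 in 786-O. FBP1, a gluconeogenic enzyme of normal kidney, ran the other way: it was at background in all renal channels and at 2.48 and 2.66 in PC3 and -0.63 and -0.53 in DU145, at least 53.2-fold higher in the prostate lines. CUBN, NAT8, PCK1 and SLC22A6, genes of the mature proximal tubule, passed the filter in no line, and LRP2 (megalin) differed by 1.12 without being apart.

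Transcription factors of the nephron gave 7 of 22 tested members (of 26) higher in the renal lines (31.8%) and 1 higher in the prostate lines (4.5%), against 4.63% and 4.71% of all genes, with a median difference of 0.88. They included PAX2, PAX8, LHX1, SALL1 and IRX3. SALL1, a zinc finger factor of the kidney progenitor, was at -0.40, -0.28 and -0.53 in 786-O and -1.22 in A498 and at background in the prostate lines, at least 12.3-fold lower. IRX3, a factor of the developing tubule, ran from 0.70 to 1.40 in the renal channels, while PC3 was at background and DU145 at -3.32 and -3.72. The IRX3 difference was 5.91 ± 1.07 (block-adjusted p = 0.00961 by limma), and with PC3 at background no fold is given. LHX1, required for the first kidney epithelium, was at 4.33 to 5.41 in the renal channels, but also at 2.66 and 3.08 in DU145, while PC3 was low, at -3.30 and -2.99 (block-adjusted p = 0.193 by limma). TFCP2L1, a factor of the collecting duct, was at least 14.3-fold higher in the prostate lines. WT1 was measured in 786-O, at -2.39 to -1.14, and in PC3, but not in A498 or DU145.

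Of 15 regulators of the HIF pathway tested, 1 was apart and higher in the renal lines (6.7%, against 4.63% of all genes) and 0 in the prostate lines (against 4.71%), with a median difference of 0.39. VHL was at 6.27 in the transfected and 4.09 and 4.11 in the untreated 786-O channels and at 6.23 in A498, against 6.43 and 6.37 in PC3 and 6.64 and 6.71 in DU145. All renal channels lay below all prostate channels, a position that 10.9% of all genes had, but the transfected renal channels did so by a small margin. VHL was not apart (difference -1.01 ± 0.64, and -0.29 with 786-O taken by its transfection control alone), and kind of control and 786-O replicate cannot be told apart. On the first design the VHL means were 4.37 in 786-O and 3.73 in A498, below 4.93 in PC3 and 4.96 in DU145. ARNT2, a partner of the HIF α subunits, and RBX1, the RING protein of the VHL ubiquitin ligase, had all renal channels above all prostate channels (11.5% of all genes) and were not apart either, with differences of 1.52 and 0.88. EPAS1, which encodes HIF-2α, was at 3.79, 4.42, 4.86 and 4.52 in the renal channels and 3.42 to 4.76 in the prostate channels, and the groups overlapped (difference 0.41 ± 0.53). HIF1A was not well above background in any 786-O channel, at -7.16 to -6.62, and was at 1.26 in A498, 1.43 and 1.73 in PC3 and 2.89 and 3.28 in DU145, so that all renal channels were below all prostate channels but A498 was close to PC3. The same probe gave -7.82 in 786-O on the first design and 1.72 to 2.32 as means of the other 3 lines. HIF1A and CDH2 are described here because of their values; they were not apart. EGLN3, the hypoxia-induced prolyl hydroxylase that acts on HIF, was the regulator that was apart. It was at -1.38 in the 786-O transfection control, 1.28 and 1.73 in untreated 786-O and 2.76 in A498, against -6.5 to -4.20 in the prostate channels (difference 6.83 ± 1.09, block-adjusted p = 0.0716 by limma). Only 1 of the 4 prostate channels, of DU145, was well above background, so no fold is given. The difference was 7.31 without the 786-O transfection control and 5.87 with 786-O taken by it alone.

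**Figure D3:**
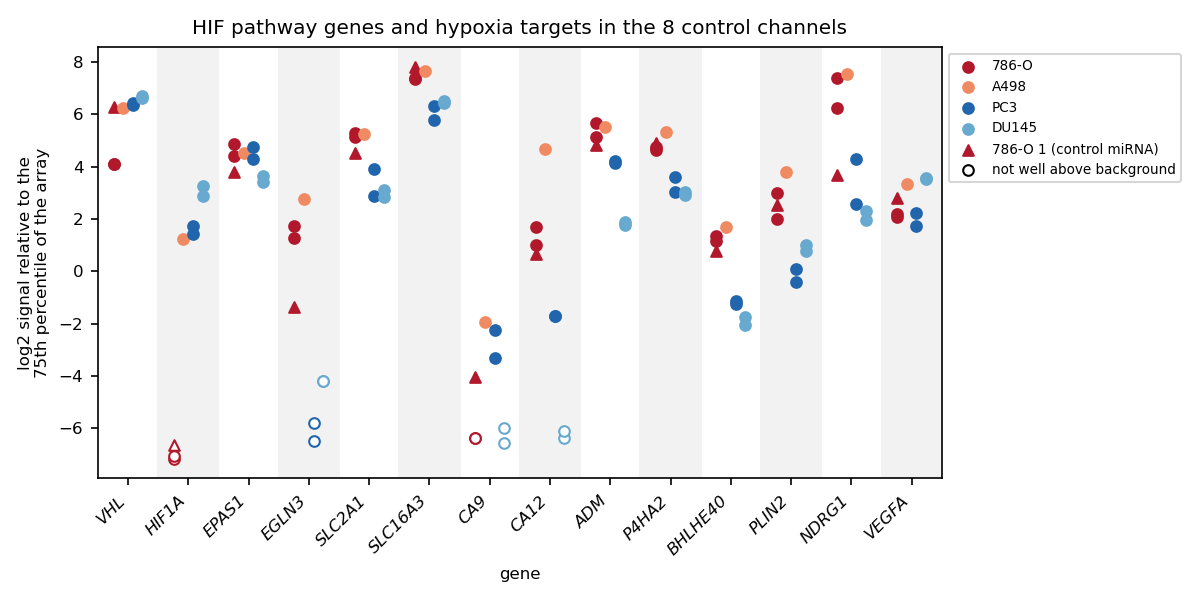
Level of HIF pathway genes and hypoxia targets (log2 signal relative to the 75th percentile of the array) in the 8 control channels, with color for the line, triangles for the transfected 786-O channel and open symbols for values not well above background. HIF1A is at background in 786-O alone, whereas SLC2A1, SLC16A3, CA12, P4HA2, BHLHE40 and PLIN2 have all renal channels above all prostate channels, and CA9 and VEGFA overlap.

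Hypoxia targets were divided into those with a glycolytic role and the others. Of 20 glycolytic targets tested, 3 were higher in the renal lines (15%) and 0 in the prostate lines, against 4.63% and 4.71% of all genes, with a median difference of 0.73. All 3 were carriers of the plasma membrane. Of the 20, 0 had a block-adjusted p under 0.05 by limma, against 1.99% of all genes. SLC2A1, the glucose transporter GLUT1, was at 4.52, 5.15 and 5.27 in 786-O and 5.27 in A498, against 3.92 and 2.86 in PC3 and 3.11 and 2.83 in DU145 (difference 1.95 ± 0.44, 3.85-fold, block-adjusted p = 0.186 by limma). SLC2A1 was not apart with control miRNA channels only (difference 1.38), and a second SLC2A1 probe differed by 0.29. SLC2A3, the transporter GLUT3, was close to background in the renal lines as well, and at least 2.06-fold higher there. SLC16A3, the lactate exporter MCT4, was at 7.34 to 7.83 in the renal channels and 5.80 to 6.5 in the prostate channels (2.51-fold), and it was not apart without 786-O replicate 1 (difference 1.25). On the first design SLC16A3 was not apart either (difference 0.48). The enzymes themselves were not apart: PGK1 differed by 0.97, LDHA by 0.50 and GAPDH by 0.47.

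Among the other hypoxia targets, 10 of 31 were higher in the renal lines (32.3%) and 1 in the prostate lines (3.2%), against 4.63% and 4.71% of all genes, with a median difference of 0.65. The latter was KISS1R, the kisspeptin receptor. On the first design 7 of the 10 were apart the same way, and NDRG1, DDIT4 and BHLHE40 were not. Of all renal-high genes on that design 46.6% were apart the same way. Of the 31, 2 had a block-adjusted p under 0.05 by limma, against 1.99% of all genes. CA12, a second membrane carbonic anhydrase, was at 0.65, 1.71 and 1.0 in 786-O and 4.68 in A498, against -1.70 and -1.71 in PC3 and background in DU145 (difference 6.86 ± 2.03, block-adjusted p = 0.0808 by limma). Thus CA12, unlike CA9, had all renal channels above all prostate channels. BHLHE40, a transcriptional repressor of the circadian clock, was at 0.77 to 1.69 in the renal channels and -2.04 to -1.12 in the prostate channels (7.66-fold, block-adjusted p = 0.0136 by limma). On the first design BHLHE40 was not apart, with 0.35 in PC3, above the 0.20 of 786-O. P4HA2, a collagen prolyl hydroxylase, was 3.74-fold higher and POU5F1, the stem cell factor OCT4 whose probes may also read transcribed pseudogenes, 4.41-fold higher.

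NDRG1, DDIT4 and ADM depended on the untreated 786-O channels. NDRG1, a stress-induced gene, was at 3.67 in the 786-O transfection control and 6.24 and 7.41 in untreated 786-O, with 7.55 in A498, 4.30 and 2.57 in PC3 and 1.96 and 2.32 in DU145, so that the channels overlapped. DDIT4, an inhibitor of mTOR signaling, was at 2.50, 5.22 and 5.91 in 786-O and 4.77 in A498 and reached 3.07 in DU145. ADM, the vasodilator adrenomedullin, was at 4.84 to 5.67 in the renal channels and 4.13 and 4.23 in PC3, and only DU145 was clearly lower at 1.90 and 1.76. With 786-O taken by its control miRNA channel alone, NDRG1, DDIT4 and ADM were no longer apart, at differences of 2.82, 2.10 and 2.17. With all channels their block-adjusted p was 0.3755, 0.4091 and 0.2005 by limma, in the same order. VEGFA, the angiogenic factor, overlapped between the groups (difference 0.08 ± 0.76), and so did ANGPTL4 (-0.02 ± 1.61). CXCR4 was at 4.72 in A498 and between -4.22 and -2.79 in 786-O.

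The core ACGTG is the part of the hypoxia response element that HIF contacts. It was searched on both strands of RefSeq promoters (GRCh38.p14), from 250 bases before to 50 bases after each start, and it overlaps the E-box CACGTG. Of 13 hypoxia targets higher in the renal lines, 9 had a promoter in the table and 4 of these held the core (44.4%), against 20 of 32 targets that were not apart (62.5%) and 6790 of 27305 genes (24.9%). The core was thus found in targets that set the lines apart and in targets that did not. These 4 genes are shown, with the core in capitals, 5′ to 3′ on the gene strand, because they carry both a difference and a core:
SLC16A3: ccaggcggtgACGTGcgcgggggac
DDIT4: aacgttgcttACGTGcgcccggagt
BHLHE40: cagtggccagACGTGcctggagtca
PLIN2: gggcgccgggACGTGcccgagggtg
The windows lie at chr17:82228964-82228988 (plus strand) for SLC16A3, chr10:72273789-72273813 (plus strand) for DDIT4, chr3:4979253-4979277 (plus strand) for BHLHE40 and chr9:19127598-19127622 (minus strand) for PLIN2. The first base of the core is at -68, -125, -174 and -120 from the annotated start, in the same order, upstream of the transcribed sequence. A match is a description of the sequence and not a measured binding site.

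PLIN2, the coat protein of lipid droplets, which give clear cells their name, was also a member of the list of lipid genes. It was at 2.53, 1.99 and 3.0 in 786-O and 3.80 in A498, against -0.40 and 0.11 in PC3 and 0.78 and 1.02 in DU145 (6.86-fold). Of its 3 tested probes only this one was apart, and the lowest difference was 0.33. Of 26 lipid genes tested, 4 were higher in the renal lines (15.4%) and 0 in the prostate lines, against 4.63% and 4.71% of all genes, with a median difference of 0.13. With 786-O taken by its control miRNA channel alone the count was 2 of 26, without PLIN3 and VLDLR. The others were PLIN3, another droplet protein (2.21-fold), FABP6, a bile acid binding protein (10.2-fold, with 1 DU145 channel not well above background), and VLDLR, the receptor for very low density lipoprotein. VLDLR was at 0.31 to 1.17 in the renal channels, at background in PC3 and at -0.50 and -0.33 in DU145. FASN and SCD, enzymes of fatty acid synthesis, were not apart (differences 0.19 and 0.55).

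The epithelial list held the greatest share of apart genes. Of 48 tested members, 28 were higher in the prostate lines (58.3%, against 4.71% of all genes) and 1 in the renal lines (2.1%, against 4.63%), with a median difference of -3.26. Of the 48, 13 had a block-adjusted p under 0.05 by limma, against 1.99% of all genes. On the first design 18 of the 28 were apart the same way, against 51% of all prostate-high genes on that design. ESRP1, ST14, MARVELD2 and KRT17 were among those not apart there, and the CLDN7 probe was not on that design. CDH1, which encodes E-cadherin, was at 4.13 and 3.58 in PC3 and 3.31 and 2.87 in DU145, and not well above background in any renal channel, at -6.79 to -5.30. The renal lines were at least 296-fold lower (difference -9.90 ± 0.54, block-adjusted p = 0.000432 by limma). OVOL2, a repressor of mesenchymal genes, was at least 83.6-fold lower in the renal lines, and ESRP2, an epithelial splicing factor, 34.9-fold lower (block-adjusted p = 0.00176). ITGB4, the integrin of hemidesmosomes, was at 4.36 and 4.00 in PC3 and 2.87 and 2.45 in DU145, and at -5.17 to -1.93 in the renal channels (block-adjusted p = 0.0118). Others higher in the prostate lines were ESRP1, GRHL1, MARVELD2, ST14, SPINT1, PPL, LAMB3, S100A14, MAL2 and LSR, with those named below.

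Tight junction genes differed in size of change and were not all apart: CLDN4 had a difference of -0.50 with overlapping lines, and TJP3, at background in the renal lines and in DU145, had -1.87. CGN (cingulin) was 42-fold lower in the renal lines and CLDN7 6.15-fold. OCLN (occludin) was at -6.60 to -4.37 in the renal channels and -1.48 to -1.17 in the prostate channels (block-adjusted p = 0.0279 by limma), and was well above background in A498 but in no 786-O channel, while MARVELD3 was at background there and at least 15.5-fold lower. CLDN3 was at -3.80, -0.73 and -0.45 in 786-O and -4.26 in A498, against 2.86 to 3.13 in the prostate channels (block-adjusted p = 0.129 by limma). Among keratins, KRT7 was at 2.97 to 3.87 in the renal and 8.03 to 8.33 in the prostate channels (26-fold, block-adjusted p = 0.00176 by limma), KRT17 was at background in the renal lines, and KRT8 and KRT18, the keratins of simple epithelia, were not apart (differences 0.34 and -0.94). DSP (desmoplakin) was at background in all 786-O channels but at 1.86 in A498, against 3.09 to 3.77 in the prostate channels. The renal lines were thus not alike for DSP, and its difference of -5.58 had an SE of 2.82 and a block-adjusted p of 0.254 by limma.

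For some epithelial genes 786-O itself was divided. EPCAM, the epithelial adhesion molecule, was at -2.96 in the transfected and 1.16 and 1.01 in the untreated 786-O channels and at -3.54 in A498, against 5.25 to 5.91 in the prostate channels, which lay above all of them. The EPCAM difference was -7.51 (block-adjusted p = 0.125 by limma), and it was -6.84 without the transfected 786-O channel and -8.86 with that channel alone. KRT19 was at 4.49 in the transfected and 7.34 and 7.83 in the untreated 786-O channels, the last overlapping PC3, and at 2.37 in A498. SPINT2, an inhibitor of epithelial serine proteases, was at 3.03, 5.13 and 5.33 in 786-O, -1.02 in A498 and 5.58 to 6.42 in the prostate channels. Without 786-O replicate 1, KRT19 and SPINT2 were no longer apart (differences -3.07 and -3.95). ELF3, an epithelial transcription factor, was the 1 member higher in the renal lines, at 3.27 and 3.15 in untreated 786-O and 1.66 in A498, but -2.13 in the transfected 786-O channel. With 786-O taken by that channel alone the ELF3 difference went from 1.77 to -0.01, and with control miRNA channels only to -0.39.

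The E-box CACCTG, to which the SNAI and ZEB repressors bind, was searched in the same way, on both strands, where its complement reads CAGGTG. It was found in 7 of the 11 prostate-high epithelial genes with a promoter in the table (63.6%), in 8 of 11 epithelial genes that were not apart (72.7%) and in 6571 of 27305 genes (24.1%). As with the hypoxia core, the motif did not separate members that were apart from members that were not. One upstream window is shown for each of 5 members of the epithelial list, with the motif in capitals:
CLDN7: acttccggttCAGGTGagtgtccctt
OCLN: atccgagtttCAGGTGaattggtcac
SPINT1: ccgggctgatCAGGTGtgtctcctcc
DSP: agaaaccggcCAGGTGtggcctaggc
S100A14: gagctgagctCAGGTGagctggctcc
In GRCh38.p14 they lie at chr17:7262598-7262623 (minus strand) for CLDN7, chr5:69492504-69492529 (plus strand) for OCLN, chr15:40844441-40844466 (plus strand) for SPINT1, chr6:7541576-7541601 (plus strand) for DSP and chr1:153616324-153616349 (minus strand) for S100A14. The motif begins at -135, -33, -26, -85 and -14 from the annotated start, in the same order.

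Mesenchymal genes did not form a mirror image of the epithelial ones. Of 24 tested members (of 30), 5 were higher in the renal lines (20.8%) and 3 in the prostate lines (12.5%), against 4.63% and 4.71% of all genes, with a median difference of 1.53. SNAI1, a repressor of CDH1, was at 1.67, 1.44 and 1.41 in 786-O and 3.27 in A498, against -0.35 to 0.07 in the prostate channels (5.48-fold). ZEB2 was low but above background in the renal channels, at -2.80 to -1.18, and at background in the prostate channels, at least 4.49-fold lower. ZEB1 was at 0.52 to 1.57 in the renal channels but also at 0.90 and 1.13 in DU145, and PC3 was low, at -3.48 and -2.57. VIM, the mesenchymal intermediate filament vimentin, had the same order, with 7.85 to 8.39 in the renal channels, 7.20 and 7.04 in DU145 and 2.39 and 2.99 in PC3, and it was no longer apart without DU145 replicate 2 or 786-O replicate 3 (differences 3.20 and 3.19), or with control miRNA channels only (3.40). ACTA2, smooth muscle actin, was 23.8-fold higher in the renal lines (block-adjusted p = 0.0487 by limma), with 1 DU145 channel not well above background, and SPARC is given above. CDH2 (N-cadherin) was at 3.92 to 4.52 in the renal channels and 3.30 and 3.02 in PC3, and at background in DU145. TWIST1, a mesodermal factor, ran the other way and was at least 4.81-fold higher in the prostate lines, with S100A4 (3.69-fold) and TAGLN (15.1-fold). Of 2 tested TWIST1 probes only 1 was apart, and their differences were -4.31 and -1.81. S100A4 was not apart without 786-O replicate 1 (difference -1.53).

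Some PC3 values differed between the array designs. On the first design the 5 PC3 control channels gave -2.34 to -0.56 for CDH1, against 4.13 and 3.58 on the second, and 6.04 to 6.77 for VIM, against 2.39 and 2.99. EPCAM was at 2.14 to 2.34 in PC3 on the first design and at 5.91 and 5.77 on the second. ZEB1 was at 0.39 to 1.13 in PC3 on the first design, above the -1.16 of one DU145 channel there and to both sides of the 0.58 of the other, so its low level in PC3 was seen on the second design only. In PC3 CDH1 and EPCAM were thus higher and VIM and ZEB1 lower on the second design, each design scaled on its own, although each PC3 channel was most like PC3 of the first design over all probes. CDH1 and EPCAM were apart in the same direction on both designs, with differences on the first design of -7.72 and -6.38, and VIM had 1.18 there. Other genes higher in the prostate lines also had lower PC3 means on the first design than on the second. In that order they were -3.04 and 4.73 for CST6, -3.26 and 2.60 for OVOL2, and -1.55 and 3.53 for CGN. For ESRP1 they were -4.76 and 0.45, and for GAL -2.63 and 1.48. DKK1, at 5.71 and 6.5, moved less, and MSMP, at 7.15 and 6.24, moved the other way. Design, culture and slide cannot be told apart for these values.

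HOX genes, which set position along the body axis and keep their pattern in cultured cells, gave 9 of 34 tested members (of 39) higher in the renal lines (26.5%) and 1 higher in the prostate lines (2.9%), against 4.63% and 4.71% of all genes, with a median difference of 1.28. The HOXD cluster, whose genes pattern the kidney among other organs, had the highest median of the 4 clusters, 4.61 over 7 genes, with 4 of them apart. HOXD10 was at 1.78, 0.26 and 0.39 in 786-O and 0.78 in A498 and at background in the prostate lines, at least 37.6-fold lower (block-adjusted p = 0.00343 by limma). HOXD3 was at least 16.1-fold higher in the renal lines, HOXD8 at least 11.8-fold and HOXD11 at least 5.59-fold. A second HOXD3 probe differed by 0.52. HOXD9 was measured in all lines and was not apart (difference 1.97 ± 0.72).

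**Figure D4:**
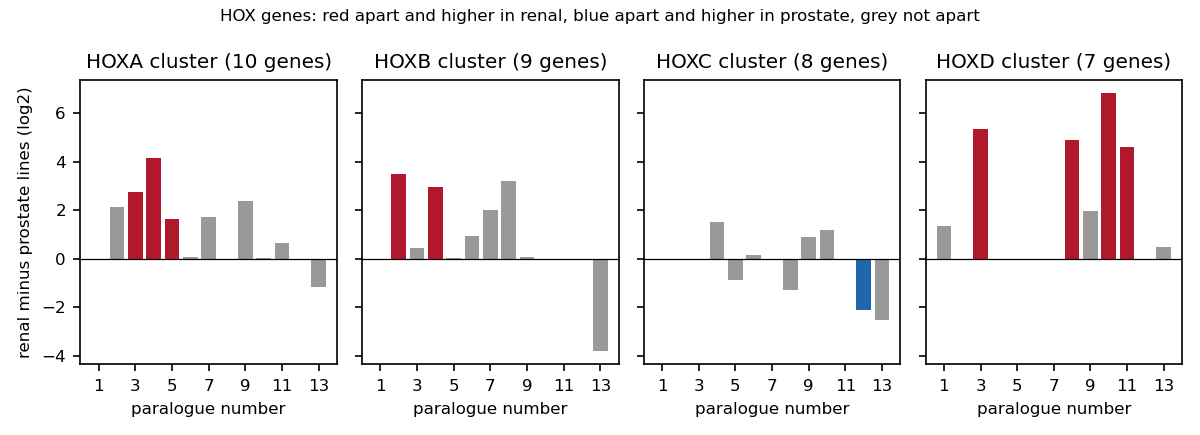
Difference between the renal and the prostate lines (log2, mean of 2 lines each) for every tested HOX gene, in 4 panels by cluster and ordered by paralogue number. Bars are red where both renal lines were apart above both prostate lines, blue for the reverse and grey otherwise, and the red bars lie in the HOXA, HOXB and HOXD panels, with HOXD10 the tallest at 6.85.

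In the HOXA cluster 3 of 10 tested genes were higher in the renal lines. HOXA3 was at 2.86 to 3.87 in the renal and 0.29 to 0.55 in the prostate channels (6.85-fold, block-adjusted p = 0.00909 by limma), HOXA4 had a difference of 4.18 with DU145 at background, and HOXA5 was 3.17-fold higher. In the HOXB cluster 2 of 9 were higher. HOXB2 was at 3.49, 3.19 and 3.17 in 786-O and 2.99 in A498, against -0.55 to -0.17 in the prostate channels (11.3-fold, block-adjusted p = 0.00136). A second HOXB2 probe differed by 2.22 and was not apart. HOXB4 was 7.72-fold higher (block-adjusted p = 0.00491). The HOXC cluster had a median of -0.34 over 8 genes and only HOXC12 was apart, well above background in 1 DU145 channel alone. HOXB13, the prostate homeobox gene, was at 2.33 and 1.93 in PC3 and at background in DU145, and at -4.29 and -4.26 in untreated 786-O, so it marked PC3 and not the prostate lines as a pair.

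The prostate lineage list had 4 of 23 tested members (of 26) higher in the prostate lines (17.4%, against 4.71% of all genes) and 1 higher in the renal lines (4.3%, against 4.63%), with a median difference of -0.90. FOXA1, the pioneer factor of luminal prostate cells, was at 1.59 and 1.74 in PC3 and 1.95 and 1.88 in DU145, and at -4.82 to -0.81 in the renal channels (difference -5.20 ± 1.06, block-adjusted p = 0.142 by limma). The lowest of these, A498, was not well above background, so no fold is given. Another FOXA1 probe differed by -1.37. SPDEF, an ETS factor of prostate epithelium, was 11.8-fold higher in the prostate lines (block-adjusted p = 0.0405 by limma), STEAP2, a metalloreductase, 7.24-fold (block-adjusted p = 0.0224), and the membrane protein TMC5 at least 27.3-fold (block-adjusted p = 0.000744). The androgen-dependent markers KLK3 and TMPRSS2 were not apart. KLK3 (PSA) was at -4.08 to -3.53 in the prostate channels and -5.34 to -3.58 in the renal channels. TMPRSS2 had a difference of -1.06. LNCap, the androgen-sensitive prostate line on the first design, had 2.21 for KLK3 and 2.84 for TMPRSS2, so the probes for these genes gave signal in another line. TRPM8 was low in 786-O and not well above background in A498 or in the prostate lines. A second TRPM8 probe differed by 0.92 and was not apart.

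Of 24 tumour suppressors tested, 2 were higher in the prostate lines (8.3%, against 4.71% of all genes) and 0 in the renal lines (against 4.63%), with a median difference of 0.32. CDKN2A, which encodes the cell cycle inhibitor p16, was at 6.42 and 6.38 in DU145 and 3.72 and 3.39 in PC3, against -1.09 to 0.31 in the renal channels (35.7-fold, block-adjusted p = 0.0227 by limma). Its neighbour CDKN2B was at background in the renal lines and near it in the prostate lines. PBRM1, BAP1 and SETD2, chromatin genes often mutated in clear cell carcinoma, differed by -0.66, 0.52 and -0.39.

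Cytokines and chemokines had members apart in both directions, 4 of 28 higher in the renal lines (14.3%) and 5 in the prostate lines (17.9%), against 4.63% and 4.71% of all genes, with a median difference of -1.45. CCL2, the monocyte chemoattractant, was at -0.65, -1.71 and 0.57 in 786-O and 4.98 in A498 and at background in the prostate lines, at least 98.8-fold lower (block-adjusted p = 0.0493 by limma). IL32 was at 3.92 to 4.30 in the renal channels and -0.51 to -0.12 in the prostate channels (22.4-fold, block-adjusted p = 0.000557). TNFSF10, the death ligand TRAIL, was 51.4-fold higher in the renal lines and TGFB1 3.57-fold (block-adjusted p = 0.0466 and 0.0423), with TNFSF10 not well above background in 1 DU145 channel. IL18, CXCL16, CSF2, CXCL2 and CXCL11 were higher in the prostate lines, and CSF2 and CXCL16 were not apart with the median as the scale. CXCL2 was not apart with control miRNA channels only (difference -1.59). CSF2 was apart in the other direction on the first design, with a difference of 2.26. IL6 and CXCL8 overlapped between the groups, and both were highest in PC3.

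Markers of other cell types were checked. None of the 6 endothelial markers tested and 1 of the 9 leukocyte markers, NCAM1, was apart. PECAM1 was at background in 7 of the 8 channels, and CD3E likewise. PTPRC was at -3.92 to -2.79 in all channels and did not separate the groups. NCAM1, an adhesion molecule also made in the developing kidney, was at 1.92, 2.10, 2.38 and 0.45 in the renal channels and at least 52.9-fold lower in the prostate lines (block-adjusted p = 0.000432 by limma). Of 3 tested NCAM1 probes 2 were apart, and the lowest difference was 2.41. Of 14 reference genes 0 were apart, with a median difference of 0.17, and ACTB differed by 0.12 ± 0.41.

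The same lines on the first design gave the same probes a second reading. There 600 of 16420 genes (3.65%) were apart and higher in the renal lines and 782 (4.76%) in the prostate lines, and limma on line means again called 0 (smallest adjusted p 0.0629; 1578 at an unadjusted p under 0.05, 9.61%). Of the 799 genes higher in the renal lines, 774 were on the first design, 735 differed in the same direction and 361 were apart the same way (46.6%), with 0 apart the other way. Of the 814 higher in the prostate lines, 776 were on it, 736 had the same direction, 396 were apart the same way (51%) and 1 the other way. The lines are the same, so these counts speak to arrays and cultures and not to further tumours. In row 1 of one first-design slide, which held 1 channel of each of the 4 lines, 331 of the renal-high genes (42.8%) and 388 of the prostate-high genes (50%) were apart the same way, and 4 of each the other way. Of all genes, 4.26% and 5.88% were apart there.

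**Figure D5:**
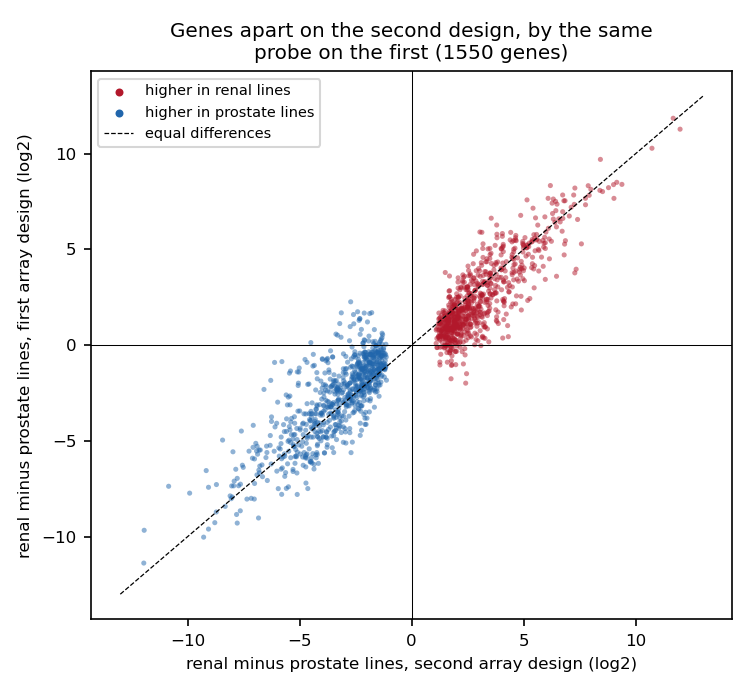
Difference between the renal and prostate lines (log2) on the second design (horizontal) and the first design (vertical) for the 1550 genes apart on the second design and measured by the same probe on both, in red where higher in the renal lines and in blue where higher in the prostate lines. The dashed line marks equal differences, and most points lie in the lower left and upper right quadrants.

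The first design also held other lines, and the genes apart on the second design were read in them. LNCap is a prostate line, and FaDu and SAS are squamous carcinoma lines of the head and neck. Of the 774 renal-high genes on that design, LNCap was below both renal lines by at least 1 for 55.6% and both squamous lines for 45.2%, and 26.1% separated the renal lines from all 5 others. Of the 776 prostate-high genes, LNCap was above both renal lines for 48.3%, both squamous lines for 40.5%, and 19.5% separated the renal lines from all 5 others. The share of all genes that met these limits was not computed, so these shares describe the chosen genes only. PAX8 was at 2.30 in 786-O and 1.39 in A498 on that design, and at -6.70 in LNCap, -4.13 in FaDu and -5.41 in SAS. PAX2 and NCAM1 were likewise at -7.04 to -5.74 in the 3 other lines. IGFBP7 did not keep to the renal lines, with 2.72 in FaDu and 5.45 in SAS, nor did SPARC, with 3.67 in SAS, or HOXD10, with 1.52 in SAS. The nephron factor IRX3 was at 0.20 in LNCap, 0.19 in FaDu and -0.89 in SAS, against 0.14 in 786-O and -0.13 in A498. CDH1 was at 4.03 in LNCap, 3.43 in FaDu and 2.73 in SAS, against -7.75 in 786-O and -6.45 in A498. DKK1, which led the prostate-high genes, was at -7.03 in LNCap and at 1.88 and 3.73 in FaDu and SAS. For DKK1 the prostate lines were therefore not alike once LNCap was read.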

How the data were processed

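The deposited files were Agilent Feature Extraction output of two-color arrays (version 10.7.3.1 per the submitters' processing notes). The intensity used was the green processed signal of the deposited files, which is the authors' Cy3 signal after the scanner software's background and dye steps; the red signal was used only as an alternative. The series' processed matrices were not used. The labels give Cy3 as the control channel. The number of arrays limits the precision. Outlier spots (255 to 407 per array) and control spots were left out, signals were divided by the 75th percentile of non-control spots of the array, spots of one probe were averaged on the log2 scale and channels were averaged per line. Cell line labels set the groups.

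Of 50599 probes on the second design 31412 (62.1%) had a gene name that matched RefSeq tables. A probe was tested where a share of at least 0.5 of its spots was well above background in a share of at least 0.5 of the channels of any line (32785 probes), and a gene was represented by its brightest tested probe. Line means were compared in limma 3.58.1 (R 4.3.3) with Benjamini-Hochberg adjustment over 17265 genes, and 8 channels with duplicateCorrelation. A bound on a fold set the brighter group's mean against, per array of the dim group, the higher of the lowest signal well above background and the probe's own signal. Channels of one line that differed by less than 1.5 times the spread of replicate spots were counted as 1 sample, which applied to PC3 replicates 3 to 5 of the first design. Code was tested on simulated data. Python 3.11.15 drew the plots (matplotlib 3.10.9).

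Named genes were PAX8, CA9, the 12 highest genes in each direction that were apart and well above background in all channels of the higher group, and list members that were apart or define a list. HIF1A, CDH2 and other list members that were not apart were named after their values were seen. The lines, the gene lists and the rules were chosen with earlier results of these data known. Alternatives were other scalings, background correction, filters, limits, channels and lines. Some members of these lists and 2 of the 12 highest genes of the prostate lines are not reported here.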

Additional observations from a re-analysis of the deposited data

How the results depend on the processing

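Of 115 named genes that were apart, 73 were apart in each of the 20 alternatives that tested them, and of 2232 values 2 reversed, both of ELF3 (-0.39 with control miRNA channels only and -0.0072 with 786-O by its control miRNA channel alone). Leaving out a whole line cannot end or reverse the call of a gene already apart. The settings without 786-O, A498, PC3 or DU145 therefore kept 115 of 115 by construction and add no support. The setting with 786-O by its control miRNA channel alone, and the counts for gene lists without the doubtful 786-O channels, were chosen after seeing the data. Background correction by normexp with an offset of 50 left 85 of the 115 apart, and 403 and 333 genes apart in all, in the order renal and prostate used below. Keeping only genes well above background in all 8 channels left 419 and 313. Leaving out 1 channel at a time gave 723 to 1442 and 766 to 2058. The upper values come from leaving out A498, after which 1 line stands for its tumour type, as in the counts without the line 786-O (2035 and 1748), PC3 (1624 and 1854) or DU145 (1667 and 1903). A limit of 0.5 gave 1637 and 1578, and a limit of 2 gave 277 and 317.

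The count of genes past an adjusted p of 0.05 by limma on line means was 0, and it was 0 without any 1 channel, 21 with the median as the scale and 40 after normexp. It was 343 with line as a random block and 5179 with all 8 channels in 4 line groups, where channels of a line count as replicates. With control miRNA channels only or 786-O by its control miRNA channel alone, 2 lipid genes were higher in the renal lines instead of 4. With the median as the scale, 3 cytokines instead of 5 were higher in the prostate lines, and 108 of the 115 named genes were apart, CSF2, CXCL16, GGT1, SPINT2, ST14 and VIM being among those lost. No paired analysis was possible because the labels carry no replicate numbers that lines share. With 2 lines per tumour type, the spread between lines sets what can be called.

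Some named calls rested on 1 channel near the limit, with the direction kept. Without 786-O replicate 1, KRT19 (-3.07), SPINT2 (-3.95), S100A4 (-1.53) and SLC16A3 (1.25) were no longer apart, without 786-O replicate 2, ELF3 (1.31) and PLIN3 (1.08), and without 786-O replicate 3, ADM (2.25), ELF3 (1.34), PLIN3 (1.06), VIM (3.19) and VLDLR (3.44). Without PC3 replicate 1, ADM (2.34), GGT1 (1.85) and MARVELD2 (-1.96) were lost, without PC3 replicate 2, CXCL2 (-1.97) and ELF3 (1.53), without DU145 replicate 1, CXCL11 (-2.73), and without DU145 replicate 2, CDH16 (2.70) and VIM (3.20). With 786-O by its control miRNA channel alone, 103 of the 115 were apart, and those lost included GGT1 (1.05), CSF2 (-2.32), HOXA5 (1.23), HOXC12 (-1.77), PLIN3 (0.82), VLDLR (3.31), NDRG1, DDIT4 and ADM. With control miRNA channels only, 101 were apart. The same genes other than GGT1 were lost, and VIM (3.40), CDH16 (2.11), CXCL2 (-1.59) and SLC2A1 (1.38) with them.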

Other observations

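The second array design also carried 4118 tested lincRNA probes without a gene name. Both renal lines were above both prostate lines by at least 1 (log2) for 153 of them (3.72%), and both prostate lines above both renal lines for 142 (3.45%), against 4.63% and 4.71% of the named genes.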
